A study of Mus musculus with 19 samples.

Results

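A set of 10 genes of the germline program, *Dazl*, *Mael*, *Ddx4*, *Sycp1*, *Sycp3*, *Asz1*, *Tdrd1*, *Hormad1*, *Stk31* and *Brdt*, was followed through 3 repressive histone marks in mouse embryonic stem cells (ESCs) that had lost DNMT1. They were chosen by name, as genes known to be silenced by DNA methylation of their promoters outside the germline, and make up 10 of 22367 protein-coding genes of the annotation. For each gene, the tiles of 2 kb over its promoter window, from 2 kb upstream to 1 kb downstream of the annotated start, and over the rest of the gene were taken, which gave 268 of the 1327469 tiles of the table and 26 tiles in promoter windows. ChIP-seq of H3K27me3, H3K9me2 and H3K9me3 had been done on control cells (genotype label Wildtype) and on *Dnmt1* conditional knockout cells (label Dnmt1 KO, here cKO). At day 4 a mark was read in 1 library per genotype, at day 8 in 2 per genotype, and the control cells also gave 1 input library. The labels name the background strain as E14 and the methods give C57BL/6. By the methods the cKO cells descend from ESCs with loxP sites in both *Dnmt1* alleles, and tamoxifen switches on the Cre recombinase that removes the DNA between these sites. The cells had been grown in serum with LIF, with or without feeder cells. Whether the control cells were of the same loxP line, and whether they received tamoxifen, is not given in the sources used here. The series' design text speaks of biological replicates and the methods of a single measurement, so p-values measure the spread between these libraries, which may be technical.

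DNMT1 copies CpG methylation onto the new DNA strand after replication, so its loss dilutes methylation with each division. Germline genes of this kind have CpG-containing promoters that are methylated during early development and stay so in somatic cells. H3K27me3 is laid down by Polycomb repressive complex 2, chiefly over CpG-rich promoters of silent genes, whereas H3K9me2 lies in broad domains and H3K9me3 marks heterochromatin and retrotransposons. DNA methylation and RNA of these cells were not analysed here.

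The promoter sequences from 250 bases before to 50 bases after the annotated start were read from the NCBIM37 genome, the build of the files. Shown are the 3 genes with more H3K27me3 in every cKO library than in any control library (*Sycp3*, *Asz1*, *Dazl*) and the pair with the highest control level (*Tdrd1*, *Ddx4*). Capitals mark CACGTG, the E-box bound by factors such as MYC and MAX, and GCGGGAA, an E2F6-type site, both searched on either strand. They are given 5′ to 3′ on the strand of the gene.

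Sycp3 (chr10:87922064-87922363, plus strand): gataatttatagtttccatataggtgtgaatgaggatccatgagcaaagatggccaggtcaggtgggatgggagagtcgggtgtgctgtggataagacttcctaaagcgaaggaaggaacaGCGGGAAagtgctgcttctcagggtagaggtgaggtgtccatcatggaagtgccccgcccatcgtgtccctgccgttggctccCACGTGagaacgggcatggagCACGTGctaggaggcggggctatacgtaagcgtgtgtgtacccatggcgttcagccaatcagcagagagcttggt

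Asz1 (chr6:18059012-18059311, minus strand): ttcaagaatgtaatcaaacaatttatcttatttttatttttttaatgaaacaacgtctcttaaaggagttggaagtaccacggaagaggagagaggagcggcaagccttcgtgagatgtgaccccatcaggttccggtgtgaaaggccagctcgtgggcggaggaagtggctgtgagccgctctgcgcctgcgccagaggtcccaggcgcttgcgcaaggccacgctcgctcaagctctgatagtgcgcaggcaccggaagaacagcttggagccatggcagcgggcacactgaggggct

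Dazl (chr17:50432875-50433174, minus strand): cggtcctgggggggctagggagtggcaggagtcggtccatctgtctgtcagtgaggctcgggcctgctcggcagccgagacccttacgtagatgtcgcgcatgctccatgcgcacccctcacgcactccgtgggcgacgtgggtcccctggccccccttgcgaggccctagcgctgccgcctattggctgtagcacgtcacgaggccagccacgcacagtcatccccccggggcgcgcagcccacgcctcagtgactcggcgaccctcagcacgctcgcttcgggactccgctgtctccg

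Tdrd1 (chr19:56900449-56900748, plus strand): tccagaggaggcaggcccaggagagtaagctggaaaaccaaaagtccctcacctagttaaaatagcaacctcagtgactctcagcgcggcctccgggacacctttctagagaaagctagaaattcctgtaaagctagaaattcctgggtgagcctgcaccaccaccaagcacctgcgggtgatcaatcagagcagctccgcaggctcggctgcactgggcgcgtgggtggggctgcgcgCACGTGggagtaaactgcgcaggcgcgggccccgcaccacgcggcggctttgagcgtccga

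Ddx4 (chr13:113442469-113442768, minus strand): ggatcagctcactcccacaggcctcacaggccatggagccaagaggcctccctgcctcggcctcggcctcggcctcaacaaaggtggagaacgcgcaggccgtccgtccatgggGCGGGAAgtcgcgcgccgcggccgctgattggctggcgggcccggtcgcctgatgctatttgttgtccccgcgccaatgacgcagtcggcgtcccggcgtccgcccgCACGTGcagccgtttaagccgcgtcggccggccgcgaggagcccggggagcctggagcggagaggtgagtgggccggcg

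CACGTG stood in 8 of the 10 promoters, all but *Dazl* and *Asz1*, and in 7.79% of 22362 promoters of the same length. Counted from the start, it began at -46 and -25 in *Sycp3*, at -57 and -20 in *Hormad1*, at -29 in *Ddx4*, at -11 in *Tdrd1*, at -43 in *Brdt*, at -94 in *Sycp1*, at -120 in *Stk31* and at -223 in *Mael*. GCGGGAA stood in *Sycp3* (-129), *Ddx4* (-136) and *Hormad1* (-95), 3 of 10 promoters against 5.58% of all. These 3 held both motifs, as did 0.568% of all promoters. CpG sites per 300 bases ranged from 13 in *Sycp3* and 17 in *Asz1* to 30 in *Dazl* and 38 in *Ddx4*, with a median of 11 and an interquartile range of 3 to 23 over all promoters. The whole of *Sycp3*, with its promoter window, lies inside *Chpt1*, a lipid synthesis gene read from the opposite strand, and ChIP reads cannot be assigned to either of them. The promoter window of *Sycp1* also holds the end of *Nr1h5*, and that of *Hormad1* the end of *Ctss*.

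ChIP libraries held 14627174 to 26181489 reads in tiles, except replicate 1 of H3K9me3 in cKO cells at day 8 with 5669098. Levels are relative read densities, that is reads per tile divided by the genome-wide mean of the same library, so that 1 is the genome mean. The day 8 H3K9me2 cKO library of replicate 2 stood apart with a median promoter density of 0.818, against 0.390 to 0.533 in the other H3K9me2 libraries, and 1.01 in the input. Promoters of 10 stem cell genes, read here as a check of the cell type, had a median H3K27me3 density of 0.533 in control cells (0.140 to 4.67). Those of 16 *Hox* genes had one of 22.8 (8.65 to 33.3). The highest of the stem cell genes was *Klf4*, with 4.22 at day 4 and 3.19 and 6.59 at day 8, so it went against the check. Reads over *Dnmt1* itself followed the labels, summed over the marks. The tile on chromosome 9 from 20744001 to 20746000, picked after its values were seen as the lowest of 24 tiles of the gene, held 49 reads in the 6 day 8 control libraries (7 to 11 in each) and 1 read in the 6 cKO libraries. At day 4 it held 23 reads in 3 control and 9 in 3 cKO libraries, 0.350 of control after scaling (exact binomial 95% limits 0.143 to 0.786). The ratios of the other tiles at day 8 lay between 0.719 and 2.11.

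In control ESCs all 10 germline promoters carried more H3K27me3 than the genome mean, and the ranges of several of them did not overlap. *Tdrd1*, a Tudor protein of the germ granule, was highest, with densities of 8.56 at day 4 and 11.7 and 7.57 at day 8 (mean 9.27 ± 2.15, SD, n = 3 libraries). *Ddx4*, the germ cell RNA helicase Vasa, had 8.25, 9.77 and 6.22 in the same order (8.08 ± 1.78). *Sycp1*, the transverse filament protein of the synaptonemal complex, had 6.32, 9.41 and 6.84 (7.52 ± 1.65). These 3 overlapped each other and lay above all the other members. *Brdt*, a testis bromodomain protein, followed with 5.66 ± 0.583. *Mael*, a piRNA pathway protein, had 4.20 ± 1.26, *Stk31*, a Tudor domain kinase, 4.08 ± 1.00, and *Hormad1*, a meiotic chromosome axis protein, 3.74 ± 0.447, and these 3 overlapped. *Dazl*, an RNA-binding protein of early germ cells, stood alone below them with 2.66, 2.60 and 2.40 (2.55 ± 0.134). *Asz1*, a germ granule protein of the piRNA pathway, had 1.56, 1.63 and 1.85 (1.68 ± 0.150), and *Sycp3*, the lateral element protein of the synaptonemal complex, had 1.48, 2.08 and 1.46 (1.67 ± 0.351). This last pair overlapped and lay below every other member. At *Sycp3* the control densities of 1.48 and 1.46 lay under its input density of 1.50, and 2.08 lay above it. On average *Sycp3* had 1.11 times the input and *Asz1* 1.66 times, while the other members had 2.62 (*Stk31*) to 8.57 times (*Tdrd1*). Among all promoters the members ranked from the 65.5th percentile (*Sycp3*) to the 94.9th (*Tdrd1*), and the median over all promoters lay between 1.07 and 1.12 in the 3 control libraries.

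**Figure D1:**
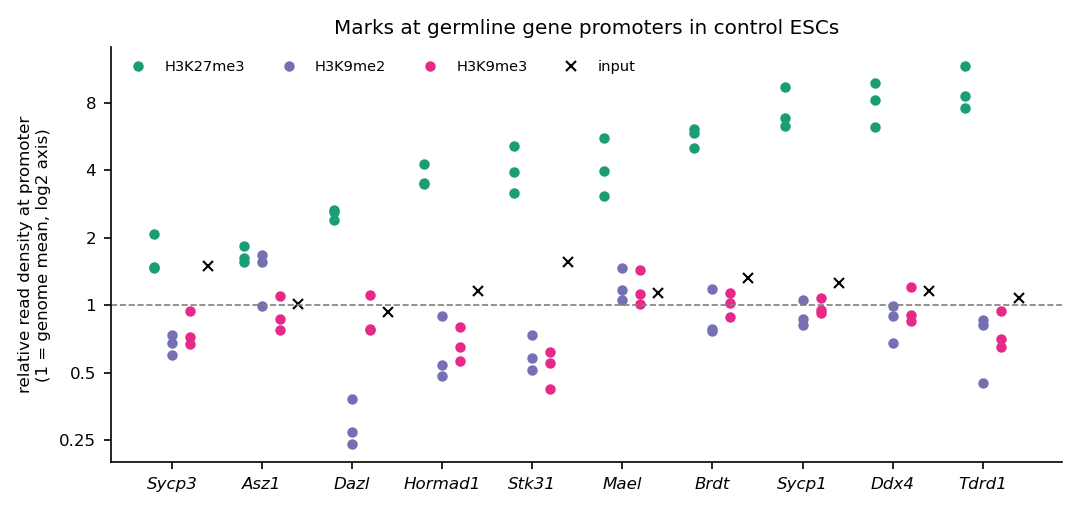
Relative read density (log2 axis, 1 = genome mean) of the 3 marks in 3 control libraries each, and of the single input library, at the promoter windows of the 10 genes, ordered by mean H3K27me3. H3K27me3 runs from 1.67 at *Sycp3* to 9.27 at *Tdrd1* (means of 3), while the means of H3K9me3 lie between 0.532 and 1.19 and those of H3K9me2 between 0.298 (*Dazl*) and 1.41 (*Asz1*).

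The H3K9 marks lay above the median of all promoters but mostly near or under the input. Control densities of H3K9me3 averaged 0.532 at *Stk31* to 1.19 at *Mael*, and those of H3K9me2 0.298 at *Dazl* to 1.41 at *Asz1*, against 0.931 to 1.56 in the input. The members' median in the control libraries was 0.814 to 0.926 for H3K9me3 and 0.691 to 0.846 for H3K9me2, where that of all promoters was 0.548 to 0.605 and 0.390 to 0.491. For H3K9me3 the members ranked from the 46.0th percentile of all promoters (*Stk31*) to the 91.2nd (*Mael*), and for H3K9me2 from the 34.4th (*Dazl*) to the 91.8th (*Asz1*). *Asz1* in H3K9me2 was at 0.998, 1.68 and 1.56, or 1.39 times the input on average. Compared with H3K27me3 in the 3 control libraries of each mark, H3K9me3 was lower at 10 of 10 members (limma, adjusted p from 1.62e-11 at *Tdrd1* to 0.00149 at *Asz1*), with a median log2 difference of -2.46. Of all promoters 56.7% were lower and 9.49% higher in this comparison, with a median of -0.83. With libraries centred on their promoter medians 8117 promoters were higher and 7337 lower (2014 and 12034 before), and 8 of 10 members were lower. With start tiles alone 9 of 10 members were lower. Of all 14045 start tiles tested 9077 were lower and 972 higher, with a median of -1.54. H3K9me2 was lower than H3K27me3 at 9 of 10 members (median -2.67), and all promoters were lower in 62.5% and higher in 9.96% of cases, with a median of -1.27. The exception was *Asz1* (-0.28 ± 0.23, SE, limma adjusted p = 0.296), which had the highest H3K9me2 of the members. With centring 7 members were lower and *Asz1* was higher. Centring changed the split over all promoters from 2016 higher and 12647 lower to 7253 and 7336. These comparisons set how reads of each mark are spread over the genome, not amounts of the marks.

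Between the H3K9 marks, *Dazl* was the 1 member past the threshold, with H3K9me3 above H3K9me2 by 1.54 ± 0.30 on the log2 scale (SE, limma adjusted p = 0.000678). No member was lower past the threshold, and over all promoters 15.9% were higher and 7.03% lower (2816 and 1248, or 2348 and 2403 after centring). *Asz1* had -0.60 ± 0.22 (limma adjusted p = 0.0519) and stood at the edge of the threshold: it was called lower with a prior of 2 reads (0.0463), centring (0.0214), limma-voom (0.0450) and day as a covariate (0.0443), and without the day 4 H3K9me2 library (0.0141) or replicate 2 of H3K9me3 (0.0497). It was not called without a trend (0.139), with the start tile (0.229) or without any of the other 4 libraries (0.116 to 0.191). The H3K9me3 of *Dazl* lay in the tile with its start (chromosome 17, 50432001 to 50434000), which held 23, 27 and 23 reads in the control libraries and 6 in the input. Its mean density there was 1.74 ± 0.167 (SD, n = 3), higher than 97.7% of all start tiles.

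In cKO cells at day 8, no member passed the threshold for H3K27me3 over its promoter window, whereas 0.694% of all promoters were called higher and 12.6% lower (limma, 2 libraries against 2, 20756 promoters). All 10 members were tested. Their median log2 change was -0.16, and that of all promoters -0.33. Scaling each library to its median promoter moved these medians to 0.03 and -0.15, so a change of a member is best read against that of all promoters. Of all promoters 144 were called higher and 2614 lower, and 517 and 1763 after centring. The count of calls rested on single libraries: it was 158 without control replicate 1, 728 without cKO replicate 2 and 921 without control replicate 2, against 2758 with all 4. The members' median was 0.01 without control replicate 1 and 0.20 without cKO replicate 2.

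The 3 members with the least H3K27me3 in control cells were the 3 with the most positive day 8 changes from control to cKO. Both rankings share the day 8 control libraries. *Sycp3* had 1.48, 2.08 and 1.46 in control (day 4, then day 8 replicates 1 and 2) and 2.84, 3.98 and 2.33 in cKO. *Asz1* had 1.56, 1.63 and 1.85 in control and 2.23, 2.96 and 2.97 in cKO. *Dazl* had 2.66, 2.60 and 2.40 in control and 3.49, 4.17 and 2.69 in cKO. In each of them every cKO library lay above every control library. That held for 3 of 10 members and 5.77% of all promoters, and the opposite order for 0 members and 26.4% of all promoters.

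At day 8 the log2 change was 0.80 ± 0.32 at *Sycp3* (SE, limma adjusted p = 0.0787), 0.77 ± 0.32 at *Asz1* (adjusted p = 0.0938) and 0.42 ± 0.34 at *Dazl* (adjusted p = 0.419), that is 1.74-fold, 1.70-fold and 1.34-fold. None of these passed the threshold. After centring on promoter medians *Sycp3* (0.99, limma adjusted p = 0.0121) and *Asz1* (0.95, adjusted p = 0.0161) did. *Sycp3* also passed with means of deposited values (0.99, adjusted p = 0.0229), limma-voom (0.84, 0.0414) and GC correction (0.91, 0.0362), and *Asz1* did not (0.0604, 0.0656 and 0.197). Neither passed when any 1 library was left out (adjusted p from 0.0515 to 0.719).

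**Figure D2:**
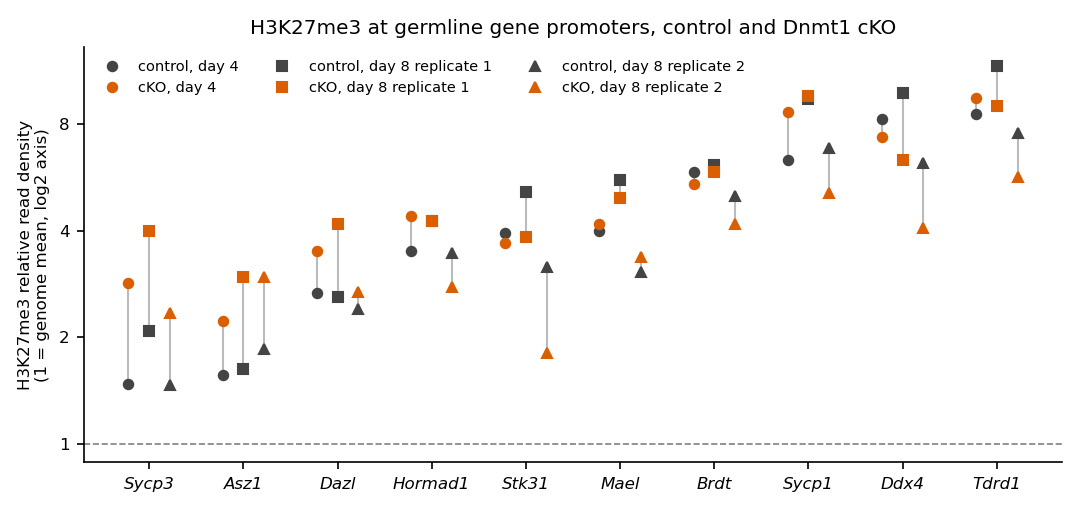
H3K27me3 relative read density (log2 axis, 1 = genome mean) at the 10 promoter windows in each of 3 control and 3 cKO libraries, with lines joining libraries of the same day and replicate number. All 3 cKO points lie above all 3 control points at *Sycp3*, *Asz1* and *Dazl*, and no gene shows the opposite order.

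At *Sycp3* the tile that holds the start (chromosome 10, 87922001 to 87924000) differed more than its upstream neighbour at day 8. It held 18 reads in control and 29 in cKO at day 4, 13 and 72 in replicate 1 of day 8, and 17 and 43 in replicate 2, with 22 in the input. Its control density was close to the genome mean (0.962 ± 0.115, SD, n = 3), and in cKO it was 1.99 at day 4 and 4.74 and 2.18 at day 8. Taking start tiles alone, *Sycp3* rose by 1.78 ± 0.37 at day 8 (SE, limma adjusted p = 0.000113), the 1 member called among 0.898% of all start tiles called higher. The tile upstream of it held 33, 52 and 32 reads in control and 54, 49 and 49 in cKO, against 21 in the input, so that in control cells the mark lay upstream of the start rather than over it. Its cKO to control ratios were 1.94 at day 4, like that of the start tile (1.91), and 0.971 and 1.30 at day 8, where the start tile had 5.71 and 2.15.

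At *Dazl* the start tile held 51 and 67 reads (control and cKO) at day 4, 50 and 102 in replicate 1, and 58 and 72 in replicate 2. At *Asz1* it held 34 and 34, then 38 and 62, then 31 and 59. The cKO to control ratio of *Dazl* was 2.10 in replicate 1 (exact binomial 95% limits 1.48 to 3.01, counting error only) and 1.06 in replicate 2 (0.737 to 1.52), so its size differed between the pairs.

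**Figure D3:**
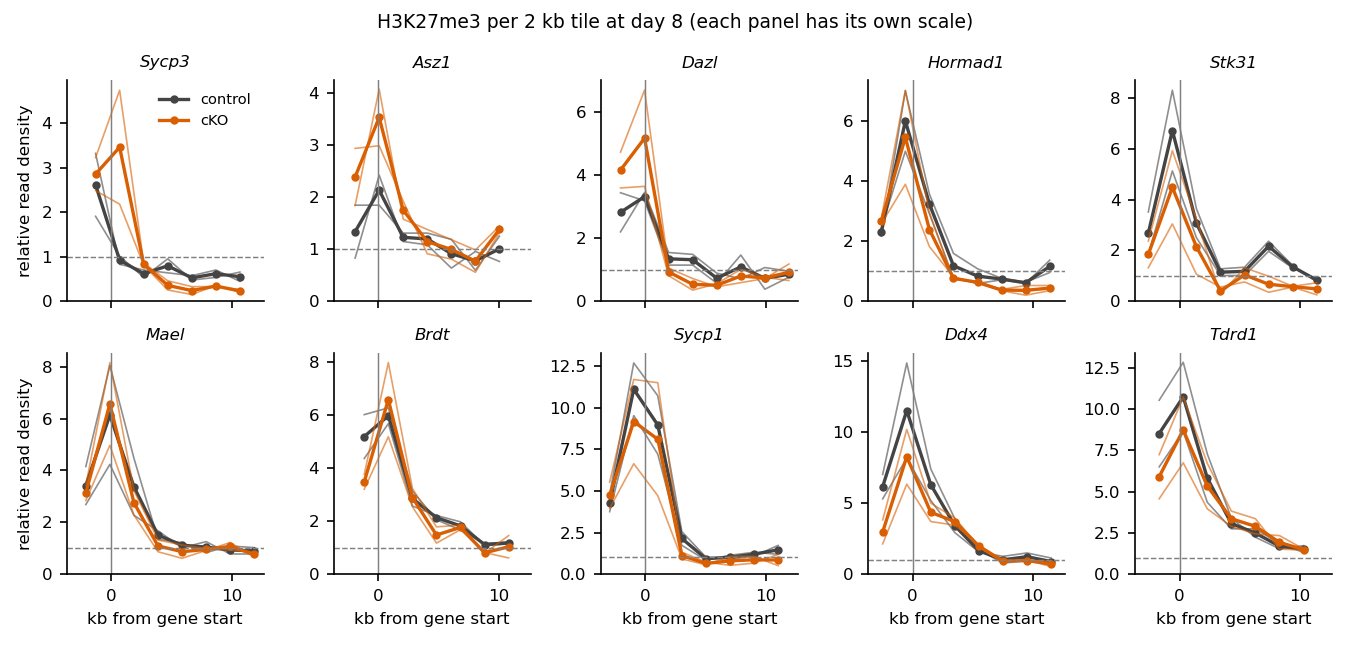
H3K27me3 relative read density per 2 kb tile against the distance of the tile's centre from the gene start in kb, along the direction of transcription, at day 8 in control and cKO (thick lines are means of 2 libraries, thin lines single libraries, dashed line the genome mean). At *Sycp3* the start tile goes from about the genome mean in control to 4.74 and 2.18 in the cKO libraries.

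The other piRNA and germ granule genes had values below 0, *Mael* close to it, and none passed the threshold. *Ddx4* had 9.77 and 6.22 in the day 8 controls and 6.34 and 4.06 in cKO, a log2 change of -0.62 ± 0.42 (SE, limma adjusted p = 0.327). *Tdrd1* had 11.7 and 7.57 in control and 8.98 and 5.65 in cKO (-0.40 ± 0.46, adjusted p = 0.594). *Mael* had 5.56 and 3.06 in control and 4.94 and 3.36 in cKO (-0.02 ± 0.37, adjusted p = 0.983), and its value turned to 0.17 with centring. In *Ddx4* and *Tdrd1* each cKO library lay under the control of its own number, but replicate 1 of cKO lay above replicate 2 of control, so the groups overlapped.

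Of the meiosis genes, *Hormad1* had 4.26 and 3.46 in control and 4.26 and 2.77 in cKO (-0.16 ± 0.35, limma adjusted p = 0.802). *Sycp1* had 9.41 and 6.84 in control and 9.59 and 5.10 in cKO (-0.20 ± 0.44, adjusted p = 0.804). In both, the difference between groups was smaller than that between replicates, and *Hormad1* turned to 0.03 with centring.

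Of the others, *Stk31* had 5.15 and 3.16 in control and 3.84 and 1.81 in cKO (-0.61 ± 0.35, limma adjusted p = 0.234). Without cKO replicate 1 its change was -1.15, where the median of all promoters was -0.46. *Brdt* had 6.13 and 5.01 in control and 5.86 and 4.18 in cKO (-0.16 ± 0.39, adjusted p = 0.820), and 0.03 with centring.

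The control level and the later change were related across the members. To keep the libraries apart, the level was taken from the day 4 control and the change from the day 8 libraries. Across the 10 genes, Pearson's r was -0.88 and Spearman's rho -0.83, against -0.26 and -0.20 across 20756 promoters. The points share their libraries and genes are not independent replicates, so these are descriptions. In the day 4 control the members spanned densities of 1.48 to 8.56, where the median of all promoters was 1.10. Promoters matched to the members in level were not compared. For H3K9me2 the members had r = -0.36 and all promoters -0.53, and for H3K9me3 0.28 and 0.09.

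**Figure D4:**
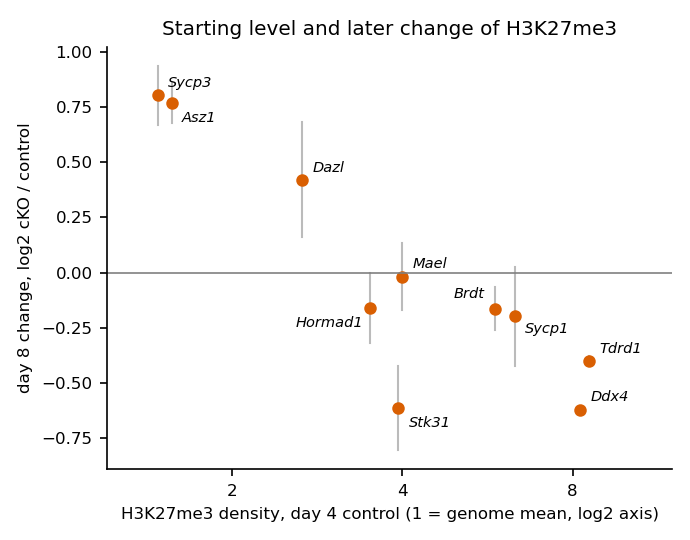
Mean day 8 log2 change of H3K27me3 at the promoter window against the density in the day 4 control library (log2 axis, 1 = genome mean), 1 point per gene, with lines spanning the 2 day 8 pairs. The change goes from 0.80 at *Sycp3*, the lowest, to -0.40 at *Tdrd1*, the highest (r = -0.88, n = 10 genes).

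Outside the promoter windows, no gene body passed the threshold in any of the 3 marks (limma, called share 0% of 17951, 17633 and 17290 gene bodies for H3K27me3, H3K9me2 and H3K9me3). At an unadjusted p under 0.05 the counts were 3675, 1411 and 2921, and limma-voom called 68, 0 and 1803. Single libraries moved these counts: for H3K27me3 there were 476 calls without control replicate 2 and 211 without control replicate 1, for H3K9me2 332 and 86, and for H3K9me3 125 without cKO replicate 2. For H3K27me3 the body of *Hormad1* held 212 and 218 reads in the day 8 controls and 114 and 117 in cKO, with 229 and 217 at day 4. Its change of -0.99 ± 0.16 (SE, limma adjusted p = 0.156) was the most negative of the members, and it passed the threshold without control replicate 2 (-1.02, adjusted p = 0.0198). The bodies of *Sycp3* (-0.62 ± 0.20, limma adjusted p = 0.200), *Stk31* (-0.54 ± 0.18, 0.202), *Sycp1* (-0.54 ± 0.13, 0.168) and *Dazl* (-0.38 ± 0.14, 0.217) were also lower in both pairs. The other 5 lay between -0.16 and 0.15. Reads over the body of *Sycp3* cannot be told from those of *Chpt1*, which spans it. The members' median was -0.27 and that of all gene bodies -0.07. The promoter window and the body differed in sign, in both pairs, at *Sycp3* and *Dazl* (promoter above 0, body below) and at *Ddx4* and *Tdrd1* (promoter below 0, body 0.12 and 0.15). These signs are read against 0, while the median change of all promoters was -0.33, near the -0.40 of the *Tdrd1* promoter. The share of all genes with opposite signs is not given here. In control cells the bodies of *Hormad1*, *Sycp3*, *Stk31*, *Sycp1* and *Dazl* had H3K27me3 of 0.701, 0.441, 0.674, 0.906 and 0.707 times the input. Their changes are thus differences at densities under the input. Of the other bodies *Tdrd1* (1.65) and *Brdt* (1.13) lay above the input, and *Mael*, *Ddx4* and *Asz1* under it.

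Single tiles with a mean of at least 10 reads per library were compared next, where 0.809% of 904466 tiles of the genome were at least 2-fold lower in H3K27me3 in both day 8 pairs and 0.744% higher. In *Stk31* 4 of 29 such tiles were this much lower in H3K27me3, in *Hormad1* 3 of 12, and in *Sycp1* and *Mael* 1 each, while the start tile of *Sycp3* was the 1 tile this much higher. The most reduced tile of *Stk31* (chromosome 6, 49352001 to 49354000, an intron) held 37 and 33 reads in control and 15 and 7 in cKO, against 26 in the input. That of *Hormad1* (chromosome 3, 95380001 to 95382000, a coding exon) held 17 and 18 in control and 4 and 5 in cKO, against 25 in the input. In H3K9me3, 3 of 21 tiles of *Tdrd1* were higher and 1 of 15 of *Mael* lower by this measure (0.795% and 1.2% of all tiles). In H3K9me2, 1 of 24 tiles of *Asz1* was lower (0.239% of all tiles) and 0 tiles of the members were higher (0.572%).

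For H3K9me2 at day 8, no member was called, and of all promoters 0.0107% were called higher and 0% lower (limma, 2 of 18671 higher, 1039 at an unadjusted p under 0.05). The members' median change was 0.32 and that of all promoters 0.36, and centring moved them to -0.10 and -0.06. *Sycp3* had densities of 0.601 and 0.737 in control and 1.09 and 1.34 in cKO, the largest difference of the members (0.85 ± 0.35, SE, limma adjusted p = 0.820). *Tdrd1* followed with 0.450 and 0.819 in control and 0.949 and 1.26 in cKO (0.83 ± 0.38, adjusted p = 0.822). Input densities at the pair were 1.50 and 1.08, so the cKO levels of *Sycp3*, and of *Tdrd1* in replicate 1, stayed under the input. *Dazl* (0.77 ± 0.72), *Sycp1* (0.53 ± 0.31) and *Ddx4* (0.43 ± 0.34) were higher in both pairs, *Stk31* had 0.20 ± 0.44 and *Hormad1* 0.19 ± 0.41, and *Asz1* (-0.32 ± 0.24), *Mael* (-0.21 ± 0.27) and *Brdt* (-0.18 ± 0.34) were negative, all at limma adjusted p from 0.822 to 0.889. With centring *Stk31* and *Hormad1* turned negative (-0.21 and -0.23). Replicate 2 of the cKO, the library with the raised promoter density, carried much of this: without it the members' median was 0.13 and that of all promoters 0.10. Without control replicate 2 the calls over all promoters were 23. All 3 cKO libraries lay above all 3 controls at 14.4% of promoters and at 0 members, and below them at 2.70% and at 0 members.

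For H3K9me3 at day 8, no member was called, and of all promoters 0% were called higher and 0.0385% lower (limma, 7 of 18193 lower, 1411 at an unadjusted p under 0.05). The members' median change was 0.19 and that of all promoters -0.04. *Stk31* had 0.425 and 0.617 in control and 0.937 and 0.864 in cKO (0.80 ± 0.34, SE, limma adjusted p = 0.616). *Brdt* had 0.884 and 1.03 in control and 1.87 and 1.36 in cKO (0.73 ± 0.28, adjusted p = 0.603), and was called without cKO replicate 2 (0.96, adjusted p = 0.0252). *Mael* had 1.01 and 1.12 in control and 1.56 and 1.77 in cKO (0.64 ± 0.27, adjusted p = 0.616). *Asz1* had 0.55 ± 0.31 and *Sycp3* 0.30 ± 0.37, and *Ddx4*, *Sycp1* and *Tdrd1* lay between 0.03 and 0.08. The groups of 3 libraries did not overlap at *Mael* and *Asz1*, 2 of 10 members, where the share of all promoters was 6.57%, and the opposite order was found at 0 members and 5.77% of promoters. In the shallow library of replicate 1 the members' promoter windows held 4 to 20 reads each, which limits these values. Without cKO replicate 2, when this library stood alone for the cKO, 1955 promoters were called, and without cKO replicate 1 there were 70.

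*Dazl* (-0.39 ± 0.35, limma adjusted p = 0.781) and *Hormad1* (-0.42 ± 0.43, adjusted p = 0.817) were lower in H3K9me3, and *Dazl* was at -0.03 and *Hormad1* at 0.24 without cKO replicate 1. The start tile of *Dazl* that carried H3K9me3 in control cells held 13 reads in cKO at day 4, 1 in replicate 1 and 20 in replicate 2, against 23, 27 and 23 in control. The day 8 change of the tile was -1.51 on the log2 scale (limma adjusted p = 0.207), and the ratio of pooled reads was 0.637 (exact binomial 95% limits 0.363 to 1.08). The value rested on replicate 1, since the change in replicate 2 was -0.20. Over gene bodies, *Tdrd1* had the largest H3K9me3 value, with 334 and 329 reads in control and 150 and 551 in cKO, a log2 change of 0.57 and 0.74 in the pairs (0.65 ± 0.10, limma adjusted p = 0.192; limma-voom adjusted p = 0.000318).

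**Figure D5:**
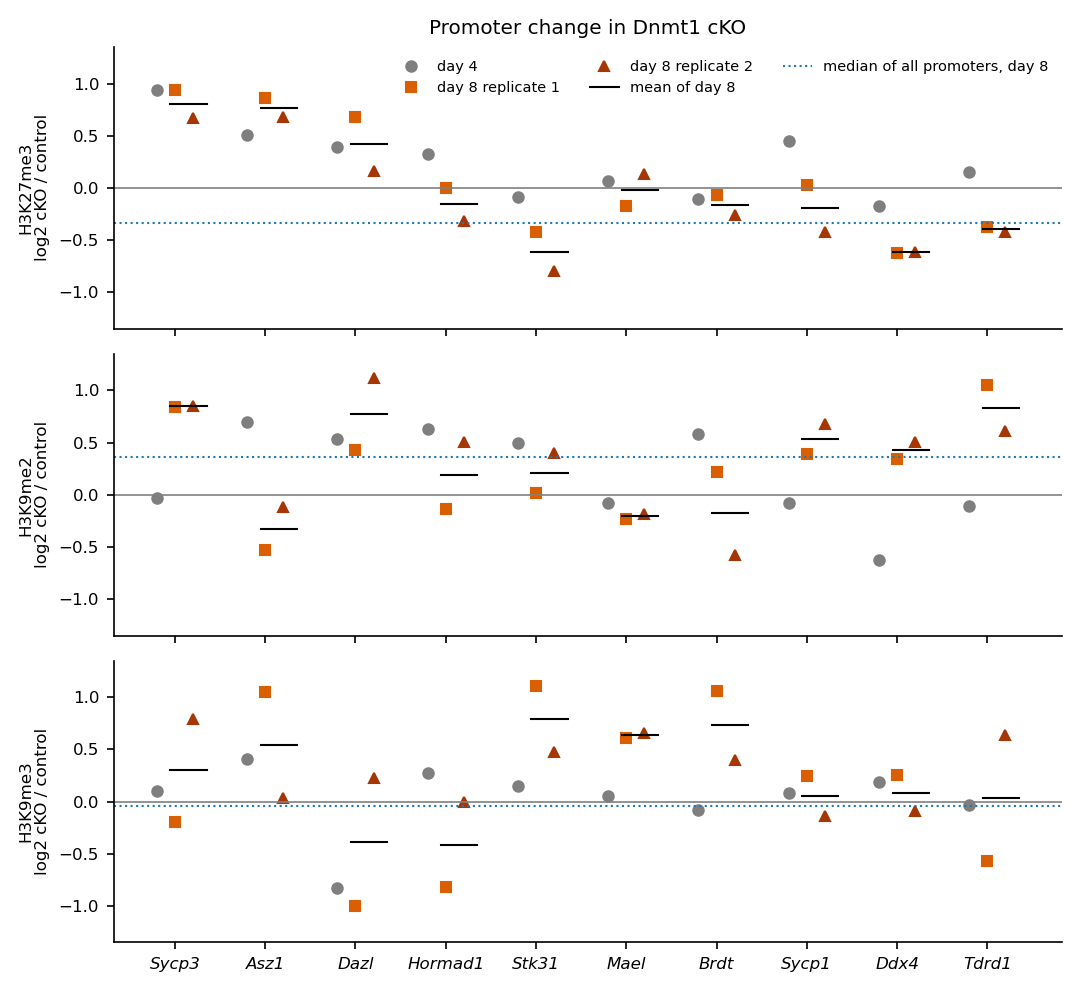
Log2 ratio of cKO to control at the promoter windows for each mark, at day 4 (1 pair) and day 8 (2 pairs), with the day 8 mean (black line) and the day 8 median of all promoters (dotted). For H3K27me3 all 3 points of *Sycp3*, *Asz1* and *Dazl* lie above 0. For H3K9me3 most genes have day 8 pairs that differ by as much as their mean change, and for H3K9me2 *Asz1*, *Hormad1*, *Stk31* and *Brdt* do.

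At day 4 there was 1 pair of libraries per mark and no member changed 2-fold in any mark. Of all promoters 0.485% were at least 2-fold higher and 2.38% lower in H3K27me3, 4.97% and 0.995% in H3K9me2, and 2.10% and 1.30% in H3K9me3. H3K27me3 was higher in cKO at 7 of 10 members (median 0.24, all promoters -0.10). *Sycp3* was 1.93 times its control (exact binomial 95% limits 1.34 to 2.79), *Sycp1* 1.37 times (1.18 to 1.59), *Dazl* 1.31 times (1.04 to 1.67) and *Hormad1* 1.26 times (1.02 to 1.55). The limits of the other 6 included 1, and in H3K9me2 and H3K9me3 those of all 10 did, apart from *Dazl* in H3K9me3 (0.559, 0.308 to 0.997). These limits cover counting error in 1 pair of libraries only. The shares of all promoters above 0, or with limits that exclude 1, are not given here.

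Other germline genes were set beside the members. Of 14 further piRNA and germ granule genes 1 was called higher and 1 lower in H3K27me3 at day 8, of 21 tested meiosis genes 0 and 3, and of 21 other testis or germ cell genes 0 and 0. Over all promoters 0.694% were called higher and 12.6% lower, so these counts do not set the lists apart. The median changes of the lists were -0.18, -0.30 and 0.11, around the members' -0.16. *Fkbp6*, a cochaperone of the piRNA pathway, had H3K27me3 of 1.53 and 1.43 in the day 8 controls and 4.84 and 4.16 in cKO (1.59 ± 0.33, SE, limma adjusted p = 0.000116). Its H3K9me3 was 7.32 and 3.87 in control and 1.29 and 1.23 in cKO (-2.06 ± 0.28, adjusted p = 0.0156). So *Fkbp6* rose in the first mark and fell in the second, and at day 4 H3K27me3 stood at 2.14 in control and 2.36 in cKO, and H3K9me3 at 4.84 and 3.48. The H3K27me3 call was lost without either control (adjusted p = 0.119 and 0.0674) and that of H3K9me3 without control replicate 1 (0.0807). No member had H3K9me3 of that level.

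*Pld6*, which acts in piRNA processing, fell in H3K27me3 (-0.85, limma adjusted p = 0.0429), as did the meiosis genes *Msh5* (-1.18, 0.00380), *Mei4* (-1.05, 0.0113) and *Syce2* (-0.87, 0.0363). Each of these 4 lost its call without control replicate 1 (adjusted p from 0.491 to 0.909) and without cKO replicate 2 (from 0.288 to 0.543), and *Pld6* and *Mei4* also without control replicate 2 (0.122 and 0.0753). In H3K9me2 none of these lists had a call, and in H3K9me3 *Fkbp6* was the 1 call.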

How the data were processed

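ChIP-seq of 3 histone marks in control and *Dnmt1* cKO ESCs was read from 1 deposited table with 19 libraries. Per the study's methods, reads were trimmed with Trim Galore, aligned with Bowtie2 (version 2.2.9 in the submitters' processing notes) to NCBIM37, and filtered at a mapping quality of 20; input was not subtracted. The values that the authors deposited are log2 of observed over expected reads per tile of 2 kb (the methods speak of 1 kb tiles). Low values were checked to be whole reads within 0.02 (100% in each library), and reads were recovered from them; an empty tile is written as 0.9 read. Reads were summed over promoter windows and gene bodies, scaled to library totals and compared as log2 values with a prior of 0.5 reads, after leaving out windows with a mean under 10 reads. Changes were tested with limma 3.58.1 in R 4.3.3 (moderated test with a trend, Benjamini-Hochberg adjustment over all windows, threshold 0.05), fitted on day 8 libraries for cKO effects and on the 3 control libraries per mark between marks. Day 4 has 1 library per group, so only folds of at least 2 were counted. Errors are SE unless named SD. Limits of read ratios are exact binomial at 95% and cover counting error only. ChIP libraries held 5669098 to 26181489 reads.

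All 10 members were named whatever their values, and from lists of other genes (piRNA and germ granule, meiosis, other testis or germ cell, stem cell, *Hox*, housekeeping) those past the threshold, at most 3 per list, mark and direction. The members and lists were chosen with earlier results of these data known. The fits were run on simulated reads drawn independently for each library. Only depth and the planted changes differed between these libraries, so the run cannot show how the fits handle other differences between libraries. Alternatives were another prior, no filter, no trend, means of deposited values, centring on promoter medians, limma-voom, GC correction, the start tile alone, a replicate block and leaving out libraries. Gene positions and promoter sequences came from the NCBIM37 reference.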

Additional observations from a re-analysis of the deposited data

Results flagged for a closer look

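Among the 10 members in each of the 3 marks, 9 combinations had a day 4 log2 change of the promoter window opposite in sign to both day 8 pairs. The share of all promoters with such signs is not given here, so the count is not read as a trait of the members. The difference between the days was not tested, since day 4 has 1 pair of libraries, and many of these values lie close to 0. For H3K27me3, *Tdrd1* averaged -0.40 at day 8 against 0.15 at day 4, and *Hormad1* -0.16 against 0.33, with day 8 pairs at -0.00056 and -0.32. For H3K9me2, *Ddx4* averaged 0.43 against -0.62, *Sycp1* 0.53 against -0.08, *Sycp3* 0.85 against -0.03, *Tdrd1* 0.83 against -0.11 and *Asz1* -0.32 against 0.70. For H3K9me3, *Hormad1* averaged -0.41 against 0.27, with day 8 pairs at -0.82 and -0.01, and *Brdt* 0.73 against -0.08.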

How the results depend on the processing

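Replicate numbers are shared by control and cKO at day 8, but no source says what a number stands for. Same-numbered deviations correlated at 0.311 in H3K27me3, 0.112 in H3K9me2 and 0.0442 in H3K9me3, over 2 pairs each. These values are above 0, but 2 pairs with no stated meaning of the number do not settle a pairing, and the fits in the text were made without it. With the replicate as a block, 7617 of 20756 H3K27me3 promoters were called (6632 with GC correction) against 2758. The block called 930 promoters higher and 6687 lower, or 1091 and 5541 with GC correction. The members called were *Sycp3*, *Asz1* and *Dazl* as higher and *Ddx4*, *Stk31* and *Tdrd1* as lower (*Tdrd1* not with GC correction). The block gave 1304 H3K27me3 gene bodies (1272 with GC), *Hormad1* included, 4 promoters and 373 gene bodies (85 with GC) for H3K9me2, and 24 promoters (82 with GC) for H3K9me3.

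H3K27me3 promoter calls were 1702 without a trend, 1766 with start tiles alone (14258 tested) and 158 to 3659 when 1 library was left out. The members' median was 0.027 with centring and -0.44 to 0.20 with 1 library left out. H3K27me3 gene bodies called were 68 by limma-voom and 0 to 476 with 1 library left out. H3K9me2 promoter calls were 0 without a trend, with centring, with GC correction and with start tiles, and 0 to 23 with 1 library left out. The members' H3K9me2 median was -0.10 with centring, 0.61 with GC correction and 0.13 to 0.64 with 1 library left out. H3K9me2 gene bodies called were 22 with centring, 2 with GC correction and 0 to 332 with 1 library left out. H3K9me3 promoter calls were 0 without a trend, 2 without the filter, 37 by limma-voom, 3 with GC correction, 16 with start tiles and 9 to 1955 with 1 library left out. The members' H3K9me3 median was 0.13 from means of deposited values, 0.49 with start tiles (7 members tested) and 0.068 to 0.39 with 1 library left out. H3K9me3 gene bodies called were 1803 by limma-voom and 0 to 125 with 1 library left out. Between marks, start tiles alone gave 836 calls for H3K9me3 against H3K9me2 (4064 over windows, 2046 to 3808 with 1 library left out) and 9256 for H3K9me2 against H3K27me3. The day 4 medians of the members turned negative with start tiles, to -0.050 for H3K9me2 and -0.15 for H3K9me3. Start tiles hold fewer reads, and fewer of them passed the filter of the fits. The day 4 medians were taken over all members without that filter. What moved these values was not tested.

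Changes of single members that turned in sign were all without a call. For H3K27me3 they were *Mael* (0.17 with centring, 0.13 with the start tile), *Hormad1* (0.028 with centring) and *Brdt* (0.025 with centring, 0.11 with the start tile). With 1 library left out the ranges were -0.45 to 0.41 for *Mael*, -0.65 to 0.26 for *Sycp1*, -0.47 to 0.15 for *Hormad1* and -0.40 to 0.080 for *Brdt*. For H3K9me2 they were *Asz1* (0.10 with GC correction, with and without the block), *Hormad1* (-0.23 with centring) and *Stk31* (-0.21 with centring, -0.44 with the start tile), and ranges were -0.50 to 0.87 for *Hormad1*, -0.16 to 0.57 for *Stk31* and -0.48 to 0.12 for *Brdt*. For H3K9me3 they were *Ddx4* (-0.18 from deposited values), *Sycp1* (-0.0076 from deposited values, -0.018 with GC correction, with and without the block), *Tdrd1* (-0.073 from deposited values, -0.026 with GC correction, with and without the block) and *Hormad1* (0.10 by limma-voom). Ranges were -0.17 to 0.33 for *Ddx4*, -0.055 to 0.17 for *Sycp1*, -0.24 to 0.84 for *Sycp3*, -0.51 to 0.58 for *Tdrd1* and -1.07 to 0.24 for *Hormad1*. A fit that leaves out a library keeps 1 sample in that arm, which is assumed to vary like the other group.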

Other observations

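Lists of genes outside the germline had the following values at day 8. For comparison, 0.694% of all promoters were called higher in H3K27me3 and 12.6% lower, with a median change of -0.33. Of 8 tested stem cell promoters 1 was called lower in H3K27me3 and 0 higher (median -0.34). It was *Klf4*, a pluripotency factor, with densities of 3.19 and 6.59 in control and 1.28 and 1.12 in cKO (-1.93, limma adjusted p = 1.22e-06). Of 16 *Hox* promoters none was called in H3K27me3, with a median of -0.84 and all 16 values below 0. Of 10 tested housekeeping promoters 1 was called lower (median -0.23), that of *Tbp*, which encodes the TATA-binding protein, with 19 and 13 reads in control and 7 and 3 in cKO (-1.74, adjusted p = 0.0136), a call that was lost without cKO replicate 2 (-1.03, adjusted p = 0.246). No promoter of these 3 lists was called in H3K9me2 or H3K9me3.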
